A study of Mus musculus with 23 samples.

Results

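Gem and Nr4a1 are 2 genes that cells switch on within a short time of a stimulus, and they were followed here across all pairs of a bigenic and a monogenic mouse skin tumour in the series. The members were the probes whose gene symbol in the platform annotation is Gem or Nr4a1. Each gene had 1 probe, so the set holds 2 of 9596 probes and 2 of 6795 genes. The genes were chosen by their log2 ratios in papillomas, which had opposite signs, so papilloma values are given as a description and were not tested. Carcinomas played no part in that choice and were tested. The spread behind their fitted errors and p-values was estimated over both classes, so papilloma values enter it.

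Bigenic tumours carried K5rTA and tetOTGFbeta, which together give a doxycycline-inducible TGF-beta, and monogenic tumours carried K5rTA alone. K5rTA is read here as a tetracycline transactivator driven by keratin 5, a promoter of basal keratinocytes, so stromal cells of a tumour piece would not make the transgene. All mice were FVB with an age given as 7 to 12 weeks, and the labels do not say at which point of the experiment. All were initiated with 100 µg of the carcinogen DMBA and promoted with 5 µg of TPA, applied 2 times a week over 20 weeks. Both genotypes ate chow with 1 g of doxycycline per kg for 48 h before harvest, after a fast of 3 h. Papillomas, which are benign, appeared at 12 to 14 weeks of promotion, and squamous cell carcinomas at 25 to 35 weeks. The 14 papilloma arrays made 11 pairs from 8 bigenic and 7 monogenic tumours, and the 9 carcinoma arrays made 7 pairs from 5 bigenic and 4 monogenic tumours. Dyes were exchanged on a second array for 5 of the 18 pairs.

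Immediate-early genes are transcribed from factors already present in the cell, such as CREB, the serum response factor and MEF2, and need no new protein. TPA, growth factors, calcium and cAMP are classical inducers of the class, and many of its members encode transcription factors of the AP-1, EGR and NR4A families. Gem encodes a small GTP-binding protein of the RGK family, which binds the beta subunits of voltage-gated calcium channels and acts on the cytoskeleton. Nr4a1, also called Nur77, encodes an orphan nuclear receptor that acts as a transcription factor and, when it leaves the nucleus, binds Bcl2 at mitochondria.

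The sequence before the start of Nr4a1 is shown because this region is the one through which stimuli are known to reach the gene, by AP-1-like elements. In RefSeq's promoter table for GRCm38.p6 the 250 bases before the start lie on the plus strand at chr15:101266596-101266845. Capitals mark every match to TGCGTCA on either strand, a motif searched after the sequence had been seen.

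Nr4a1: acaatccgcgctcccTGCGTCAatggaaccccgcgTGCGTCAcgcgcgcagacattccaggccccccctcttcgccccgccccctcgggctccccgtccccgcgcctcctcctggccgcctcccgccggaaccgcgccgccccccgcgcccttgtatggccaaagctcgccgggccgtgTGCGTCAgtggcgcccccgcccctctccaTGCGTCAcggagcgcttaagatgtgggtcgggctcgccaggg

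The window held 4 copies of TGCGTCA, beginning 235, 215, 71 and 42 bases before the start. Of 32851 mouse promoter windows of this length, 1.75% held at least 1 copy and 1 held 4 or more, which was that of Nr4a1 itself. The cAMP response element TGACGTCA, present in 1.55% of windows, and the AP-1 site TGANTCA, present in 6.75%, had no match in it. These are matches of letters and not measured binding sites.

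Each array gave 1 log2 ratio per probe between the dyes of its tumours, with values for 6729 to 9573 probes. No source used here names the dye in the numerator, so each value has a side but no settled direction. Ratios of Cy5 to Cy3 would put a transcript that is more abundant in the bigenic tumour on the positive side, and ratios of Cy3 to Cy5 would put it on the negative side. In tumour pieces, fewer cells of a type and less RNA per cell cannot be told apart. Tgfb1, the ligand named by the transgene, ranged from 0.26 to 1.97 on the 5 papilloma arrays with a value for it, all of the first range and with the bigenic tumour in Cy3, so no papilloma swap measured it. On the 5 carcinoma arrays its sign turned with the dyes in both swapped pairs, from -0.88 in Cy3 to 0.94 in Cy5 for 237 against 241A and from -0.15 to 0.39 for 236 against 257A, and 237 against 257A in Cy3 was at -0.165. Whether its probe reads the transgene is not given in the sources used here. Whether tumours with a shared number grew on 1 animal is not stated, and a p-value here reflects variation among these tumour pairs alone.

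In papillomas Gem lay on the positive side throughout. Its log2 ratio was above 0 on all 14 arrays and in all 11 pairs, from 0.053 to 1.14 with a median of 0.48 over pairs. The class mean, with each pair weighted by its arrays, was 0.62 ± 0.12 (SE, n = 11 pairs). Of the 4998 genes measured in all 11 papilloma pairs, 0.38% were on the positive side in every one. The rule that chose Gem used these values, so nothing is read from that share. The lowest values were both of bigenic tumour 2145C, at 0.053 against monogenic 2000F and 0.19 against 2000E. The highest were 1.14 for bigenic 1762D against 257B and 0.98 for 1684B against 257B. Gem varied little for a gene on these arrays, with an SD over papilloma pairs of 0.35 where the median gene had 0.48.

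The sign of Gem in papillomas held in both dye orientations. Bigenic 1684B against 257B gave 0.95 with the bigenic tumour in Cy3 and 1.02 with it in Cy5. Bigenic 228A against 257B gave 0.58 and 0.76, and bigenic 228B against 257CE gave 0.89 and 0.59. In all 3 pairs the values as deposited had opposite signs in the 2 orientations.

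Nr4a1 lay mostly on the negative side in papillomas, with a much wider spread. It was below 0 in 8 of 11 pairs and on 11 of 14 arrays, and the pairs ran from -1.49 to 0.57 with a median of -0.96. The class mean was -0.78 ± 0.20 (SE, n = 11 pairs). Of the genes measured in all 11 pairs, 19.8% were on the negative side in at least 8, and again nothing is read from that share. The SD over pairs was 0.77, above that of 86.9% of all genes tested. The lowest pairs were bigenic 228C against 257CE at -1.49, bigenic 228B against 257CE at -1.43 and bigenic 1961B against 2000H at -1.34. The 3 pairs above 0 were bigenic 2145C against 2000E at 0.57 and against 2000F at 0.48, and bigenic 1995B against 2000J at 0.052. The sole bigenic papilloma that was above 0 in more than 1 pair was 2145C, which also had the lowest values of Gem. Beside it, only 1762D and 228A had more than 1 pair. With arrays scaled to equal spread, Gem of 2145C was at 0.096 against 2000F and 0.37 against 2000E. The latter was then above 1762D against 2000D, at 0.18.

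Nr4a1 also kept its side when the dyes were exchanged in papillomas, although its size did not stay the same. With the bigenic tumour in Cy3 the 3 pairs stood at -1.35 for 1684B, -1.54 for 228A and -1.68 for 228B. With it in Cy5 they stood at -0.565, -1.11 and -1.18. The Cy5 array was the higher of the 2 each time, by 0.43 to 0.78, and for all 3 the second orientation was also hybridised in a later range of experiment numbers.

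**Figure D1:**
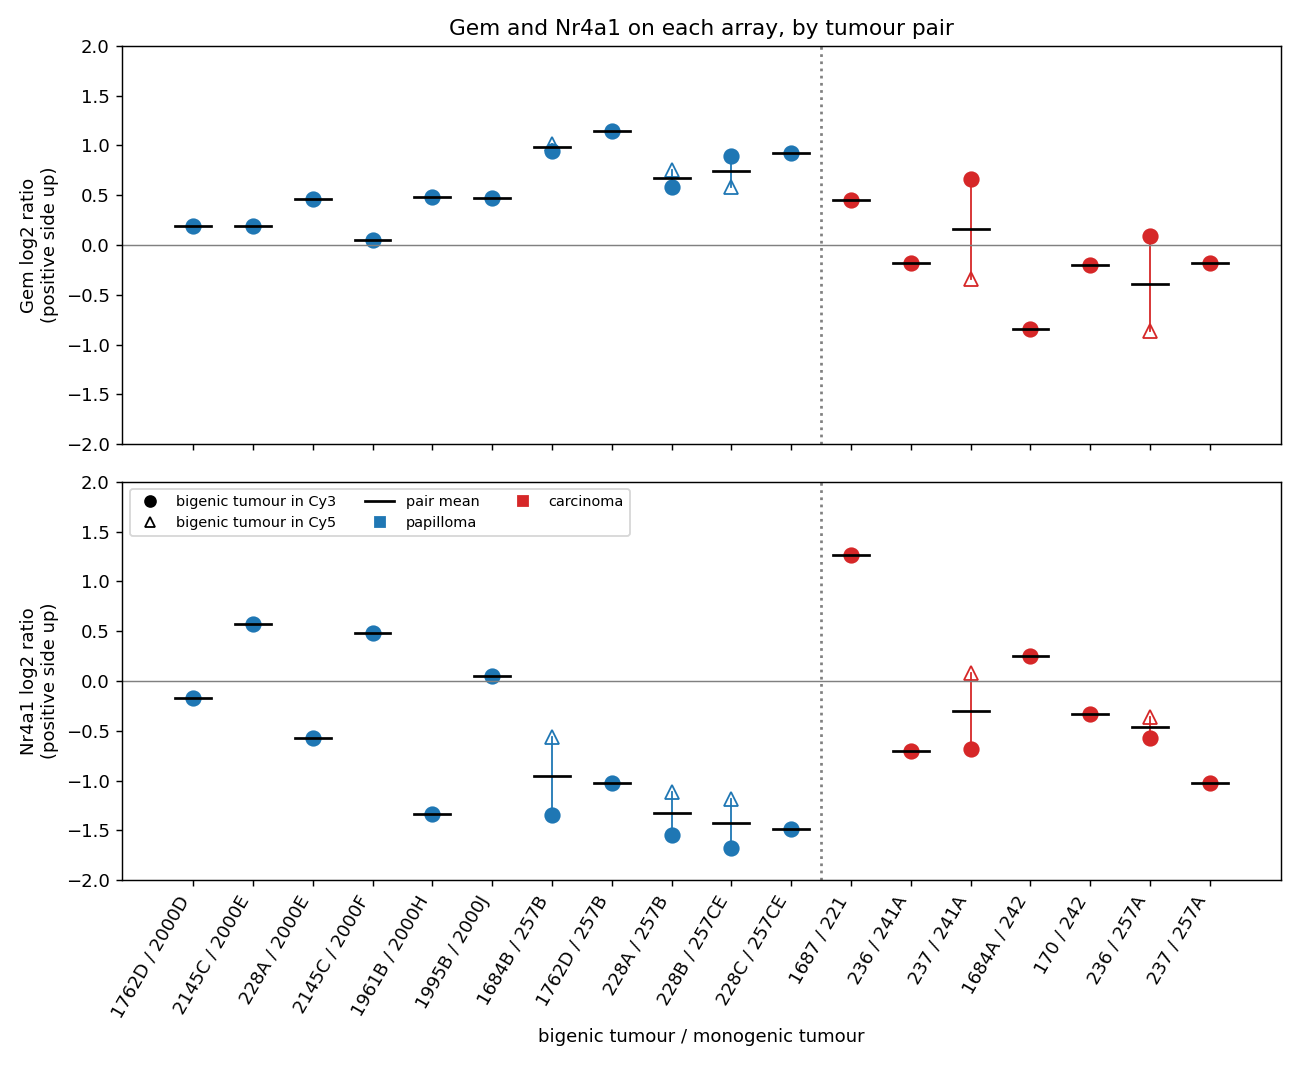
Log2 ratio (vertical axis, positive side up) of Gem above and Nr4a1 below on each array, by tumour pair along the horizontal axis; filled circles have the bigenic tumour in Cy3, open triangles in Cy5, bars are pair means, blue is papilloma and red is carcinoma. Gem is above 0 on all 14 papilloma arrays, Nr4a1 is below 0 on 11 of them, and both genes straddle 0 in carcinomas.

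Within papillomas the values differed between 2 sets of monogenic partners, and so did the spread of the arrays. The 5 pairs against monogenic tumours numbered 257 (257B and 257CE) had Gem at 0.89 ± 0.19 (SD, n = 5) and Nr4a1 at -1.24 ± 0.24 (SD, n = 5). The 6 pairs against monogenic tumours numbered 2000 (5 tumours) had Gem at 0.31 ± 0.19 (SD, n = 6) and Nr4a1 at -0.16 ± 0.71 (SD, n = 6). For Gem the 2 sets did not overlap, with 0.67 as the lowest of the first and 0.48 as the highest of the second. For Nr4a1 they did overlap, through bigenic 1961B against 2000H. The share of all genes whose sets stayed apart was not counted, so nothing is read from the separation of Gem. The SD over all genes of an array was 0.49 to 1.20 on the 8 arrays with partners numbered 257 and 0.29 to 0.70 on the 6 with partners numbered 2000. With arrays scaled to equal spread, an alternative chosen after the data were seen, Gem was at 0.77 ± 0.19 (SD, n = 5) and 0.39 ± 0.24 (SD, n = 6) in these sets, which then overlapped, with 0.46 as the lowest of the first and 0.76 as the highest of the second. Nr4a1 was then at -1.13 ± 0.48 (SD, n = 5) and -0.0023 ± 0.92 (SD, n = 6).

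Both bigenic papillomas that were set against both kinds of partner showed the same order. Bigenic 1762D had Gem at 1.14 against 257B and 0.19 against 2000D, and Nr4a1 at -1.02 and -0.17. Bigenic 228A had Gem at 0.67 against 257B and 0.46 against 2000E, and Nr4a1 at -1.33 and -0.58. Both genes thus stood farther from 0 against 257B in both tumours. The array of 1762D against 257B also had the widest spread of any, 1.20 against 0.56 for 1762D against 2000D, and after scaling Gem of 1762D was at 0.46 against 257B and 0.18 against 2000D. All 5 arrays of the first range of experiment numbers used partners numbered 2000, with Gem at 0.28 ± 0.19 (SD, n = 5) and Nr4a1 at -0.082 ± 0.77 (SD, n = 5). The 9 later papilloma arrays held Gem between 0.46 and 1.14 and Nr4a1 between -1.68 and -0.565. Range and partner cannot be told apart except on 1 later array with partner 2000E, and the difference was not tested because these values chose the genes.

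**Figure D2:**
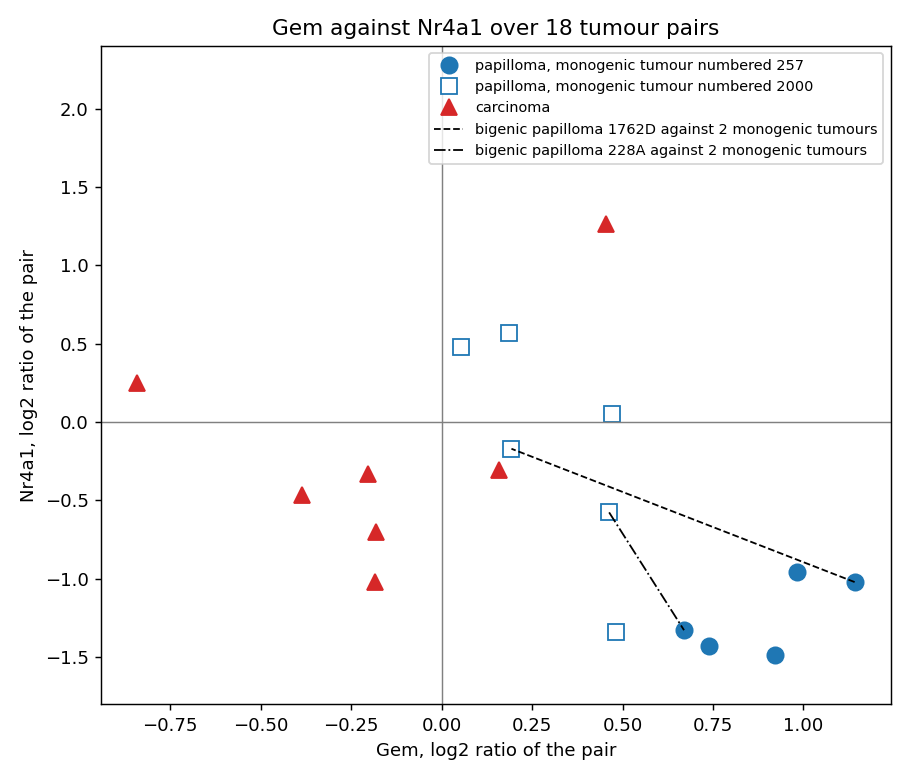
Log2 ratio of Gem (horizontal axis) against that of Nr4a1 (vertical axis) in 18 tumour pairs, with papillomas in blue by the number of the monogenic tumour and carcinomas in red; lines join pairs of 1 bigenic papilloma. The 5 papilloma pairs with a partner numbered 257 sit at the lower right, and the carcinoma pairs spread on both sides of 0 for Gem.

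In carcinomas Gem did not keep to the positive side. Its 7 pairs stood at 0.45 for bigenic 1687 against 221, 0.16 for 237 against 241A, -0.18 for 236 against 241A, -0.18 for 237 against 257A, -0.20 for 170 against 242, -0.39 for 236 against 257A and -0.84 for 1684A against 242. Thus 2 pairs were positive and 5 negative, and 28.3% of genes measured in all 7 carcinoma pairs were negative in at least 5. The class mean was -0.16 ± 0.15 (SE, n = 7 pairs) with a 95% interval from -0.47 to 0.15 (adjusted p = 0.781, limma). With carcinomas fitted alone the SE was 0.17 (adjusted p = 0.852, limma). An exact sign-flip permutation test over the 7 pairs, two-sided, gave p = 0.344, where the smallest it can give is 0.0156. Shared tumours link these pairs into 3 groups, so the pairs are not independent. The same exact test over the 3 group means gave p = 0.75, where the smallest possible is 0.25. Without monogenic 242 the mean was -0.052, without bigenic 1684A -0.071, and without monogenic 241A -0.26. Of 6413 genes tested, 0.078% passed an adjusted p of 0.05 in carcinomas.

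The sign of Gem turned with the dye orientation in both carcinoma pairs that were swapped. Bigenic 237 against 241A gave 0.66 with the bigenic tumour in Cy3 and -0.34 with it in Cy5, and bigenic 236 against 257A gave 0.090 and -0.86. A dye term for carcinomas, which is the amount by which each orientation departs from their mean, was -0.34 ± 0.16 (SE, n = 9 arrays, unadjusted p = 0.0376, adjusted p = 0.318, limma). In papillomas that term was 0.073 ± 0.13. The 7 carcinoma arrays with the bigenic tumour in Cy3 gave a mean of -0.03 ± 0.17 (SE, adjusted p = 0.946, limma), so the size of the carcinoma value depends on which orientations are used.

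Nr4a1 in carcinomas was negative in the same number of pairs but ranged more widely. Its pairs stood at 1.26 for bigenic 1687 against 221, 0.25 for 1684A against 242, -0.30 for 237 against 241A, -0.33 for 170 against 242, -0.46 for 236 against 257A, -0.70 for 236 against 241A and -1.02 for 237 against 257A. The 4 pairs of bigenic 236 and 237 were all negative, and the high pair of 1687 was 1 array in the third range of experiment numbers. The class mean was -0.23 ± 0.25 (SE, n = 7 pairs) with a 95% interval from -0.74 to 0.28 (adjusted p = 0.813, limma). With carcinomas fitted alone the SE was 0.22 (adjusted p = 0.835, limma). The exact sign-flip permutation test gave p = 0.531, two-sided. Without the pair of bigenic 1687 and monogenic 221 the mean was -0.42, at an SE of 0.24 with all papillomas kept in the fit (n = 6 pairs, unadjusted p = 0.0936, adjusted p = 0.566, limma). A fit of the second range of experiment numbers alone, which holds the same 6 carcinoma pairs, gave it an SE of 0.18 (unadjusted p = 0.0376, adjusted p = 0.621, limma). Without monogenic 257A the mean was -0.020, and without bigenic 236 or 237 it was -0.074. With each linked group of pairs as 1 replicate it was 0.20 ± 0.38 (SE, n = 3, adjusted p = 0.842, limma), so its side changed with how linked pairs were counted.

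Bigenic carcinomas 236 and 237 were each set against 241A and 257A, but only 236 against 257A and 237 against 241A were hybridised in both orientations. With the bigenic tumour in Cy3 throughout, Gem of 237 was at 0.66 against 241A and -0.18 against 257A, and Gem of 236 at -0.18 and 0.090, so the 2 tumours had opposite orders. Nr4a1 of 237 was at -0.685 against 241A and -1.02 against 257A in Cy3, and that of 236 at -0.70 and -0.57, also in opposite orders. The dye exchange moved Gem by -0.95 in the pair of 236 and 257A and by more in that of 237 and 241A, in both more than these differences between partners.

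Set side by side, the class means of Gem were 0.62 in papillomas and -0.16 in carcinomas, a difference of -0.78 ± 0.19 (SE). Those of Nr4a1 were -0.78 and -0.23, a difference of 0.55 ± 0.32 (SE). Neither difference was tested, because its papilloma side chose the genes. The 2 genes had opposite signs in 8 of 11 papilloma pairs and in 2 of 7 carcinoma pairs. Gem stood above Nr4a1 in 9 of 11 papilloma pairs, by a median of 1.82, and in 5 of 7 carcinoma pairs, by a median of 0.13.

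None of the tested immediate-early transcription factor genes on the list, which leaves out Nr4a1, passed the test in either class. Of 31 transcription factor genes listed, 21 were tested, and in carcinomas 8 were positive and 13 negative at a median log2 ratio of -0.045, against -0.0082 over all genes. The count past the threshold was 0 (limma, 0 of 21, with 2 at an unadjusted p under 0.05 in carcinomas and 4 in papillomas), where 0.0624% of all genes passed in papillomas. At an unadjusted p under 0.05 the shares of all genes were 10.3% in papillomas and 10.6% in carcinomas. The smallest carcinoma p belonged to Klf10, a TGF-beta-inducible zinc finger repressor, at -0.74 ± 0.16 (SE, 7 of 7 pairs negative, adjusted p = 0.0714, limma). Of genes measured in all 7 carcinoma pairs, 2.16% were negative in every one and 1.07% positive in every one. Bhlhe40, a helix-loop-helix repressor, followed at -0.77 ± 0.25 in carcinomas (adjusted p = 0.242) and stood at 0.80 ± 0.20 in papillomas (adjusted p = 0.125, limma). Klf2, a Krüppel-like factor, was at 0.40 ± 0.23 and Fosl1, an AP-1 subunit, at -0.30 ± 0.18 in carcinomas.

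The nearest relatives of Nr4a1 had class means within their errors of 0. Nr4a2 was at 0.26 ± 0.30 in papillomas and -0.045 ± 0.38 in carcinomas, over 8 and 5 pairs. Nr4a3 was at -0.041 ± 0.31 and -0.032 ± 0.37 (SE), over 10 and 6 pairs. In carcinomas the 95% intervals, from -0.84 to 0.75 for Nr4a2 and from -0.81 to 0.75 for Nr4a3, include the Nr4a1 value of -0.23. No difference between the family members was tested.

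Pair by pair, however, the mean of the 21 transcription factor genes had the sign of Nr4a1 in 16 of 18 pairs, 9 of 11 in papillomas and 7 of 7 in carcinomas. The other 12 lists examined, marker lists included, matched the sign of Nr4a1 in 6 to 12 pairs, and the same factor mean matched Gem in 10. The factor mean was highest at 0.46 for bigenic 228A against 2000E, 0.26 for 1687 against 221 and 0.24 for 2145C against 2000F. In 228A against 2000E, however, Nr4a1 was on the other side, at -0.58. Signs also differed in 1762D against 2000D, with the factor mean at 0.032 and Nr4a1 at -0.17. The match of 1995B against 2000J rested on a factor mean of 0.0004. The factor mean was lowest at -0.38 for 237 against 257A and -0.30 for 1961B against 2000H. Pearson's r between the factor mean and Nr4a1 was 0.66 over the 18 pairs, and 0.65 with a sign match in 14 pairs once Nr4a2 and Nr4a3 were left out. Pairs share tumours and both values of a pair share an array, so r is a description. This match was noticed after the values were seen. The papilloma values of Nr4a1, in 11 of the 18 pairs, chose the gene, so nothing is read from the match there. Of 4463 genes measured in all 18 pairs, 0.0448% matched the sign of Nr4a1 in at least 16. That share is of single genes and not of list means.

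The match differed among the members of the list. Fosl1 had an r of 0.70 with Nr4a1 over 17 pairs, Fos, the AP-1 subunit c-Fos, 0.55 and Klf2 0.54 over 18. Ier2, a nuclear immediate-early protein, had 0.47 and shared the sign of Nr4a1 in 15 of 18 pairs. Junb at -0.16, Bhlhe40 at -0.22 and Crem, a cAMP-responsive regulator, at -0.24 did not. Of the 21 genes, 17 had an r above 0 at a median of 0.21. Among 5929 genes measured in at least 16 pairs, 52.1% did, at a median of 0.015. Papilloma values of Nr4a1 enter each r, so nothing is read from that count.

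**Figure D3:**
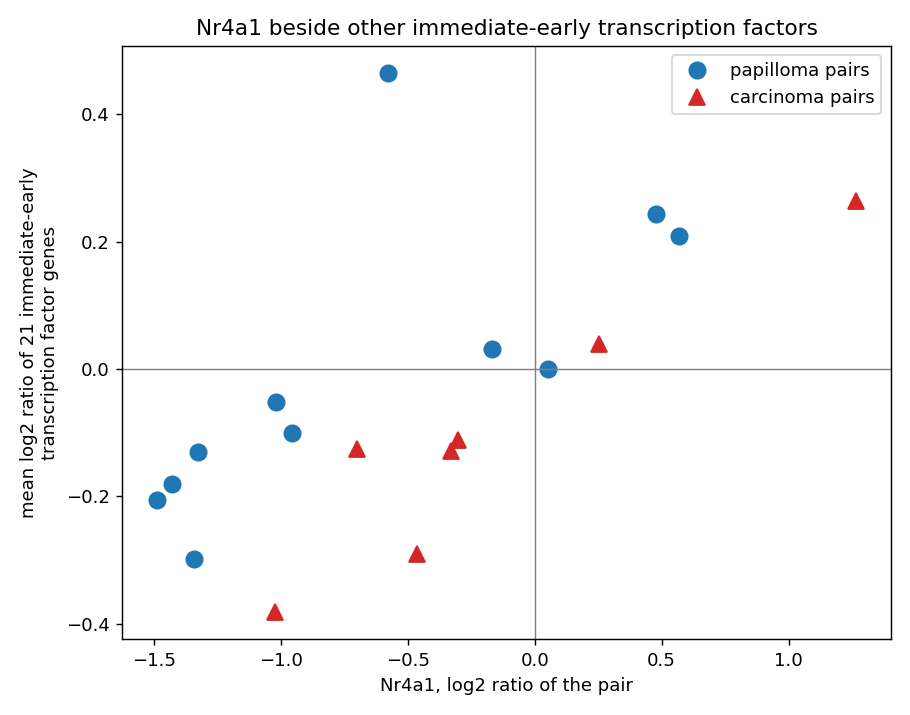
Log2 ratio of Nr4a1 (horizontal axis) against the mean log2 ratio of 21 immediate-early transcription factor genes (vertical axis) in 11 papilloma pairs (circles) and 7 carcinoma pairs (triangles). The 2 values share their sign in 16 of 18 pairs. Papilloma values chose Nr4a1, so the match there is no test. The papilloma pair farthest from the rest is bigenic 228A against 2000E, where signs differ, with the factor mean at 0.46 and Nr4a1 at -0.58.

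Immediate-early genes that encode effectors and not transcription factors were split in carcinomas. Of 43 listed, 27 were tested, 13 positive and 14 negative at a median of -0.03, and 0 passed (limma, 6 at an unadjusted p under 0.05). Hbegf, a ligand of the EGF receptor, stood at -0.92 ± 0.19 (7 of 7 pairs negative, adjusted p = 0.0714, limma). It passed when each pair was weighted by the arrays that measured the gene (adjusted p = 0.0382, limma). That setting was chosen after the data were seen, and Klf10 did not pass under it (adjusted p = 0.0631, limma). Vegfa, the vascular growth factor, was at -0.97 ± 0.25 (adjusted p = 0.131) and Edn1, which encodes endothelin, at -0.45 ± 0.19. Gadd45b, a stress-response gene, was at 0.41 ± 0.17 with 7 of 7 pairs positive (adjusted p = 0.378, limma). In papillomas 12 were positive and 15 negative at a median of -0.035, with 0 past the threshold (limma, 1 unadjusted).

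No tested gene of the list of RGK relatives and partners of Gem passed the test. Of 23 listed, 8 were tested, none of them another RGK member, and 0 passed in either class (limma, 0 unadjusted). In carcinomas Ywhaz and Sfn, genes of the 14-3-3 family of binding proteins, were at -0.24 ± 0.14 and -0.24 ± 0.16. The list median was -0.20 in carcinomas and -0.12 in papillomas. Of 14 genes of the NR4A family and the partners of Nr4a1, 9 were tested and 0 passed (limma, 1 unadjusted in each class). There Prkdc, a DNA repair kinase, was at -0.37 ± 0.17, Ncoa1, a nuclear receptor coactivator, at 0.17 ± 0.13, Bcl2 at -0.091 ± 0.13 and Rxra, the retinoid partner receptor, at 0.097 ± 0.17 in carcinomas.

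Among 24 tested genes of the kinases, phosphatases and factors that act upstream, 0 passed in either class (limma, 3 unadjusted in carcinomas and 2 in papillomas). Mrtfa, a coactivator of the serum response factor, was at -0.42 ± 0.13 in carcinomas with 7 of 7 pairs negative (adjusted p = 0.197, limma), and Srf itself at 0.0045 ± 0.20. Mapk9, a stress-activated kinase, was at -0.42 ± 0.17, Mef2a, a MEF2 factor, at -0.27 ± 0.12 and Nfatc1, a calcium-regulated factor, at 0.38 ± 0.22.

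**Figure D4:**
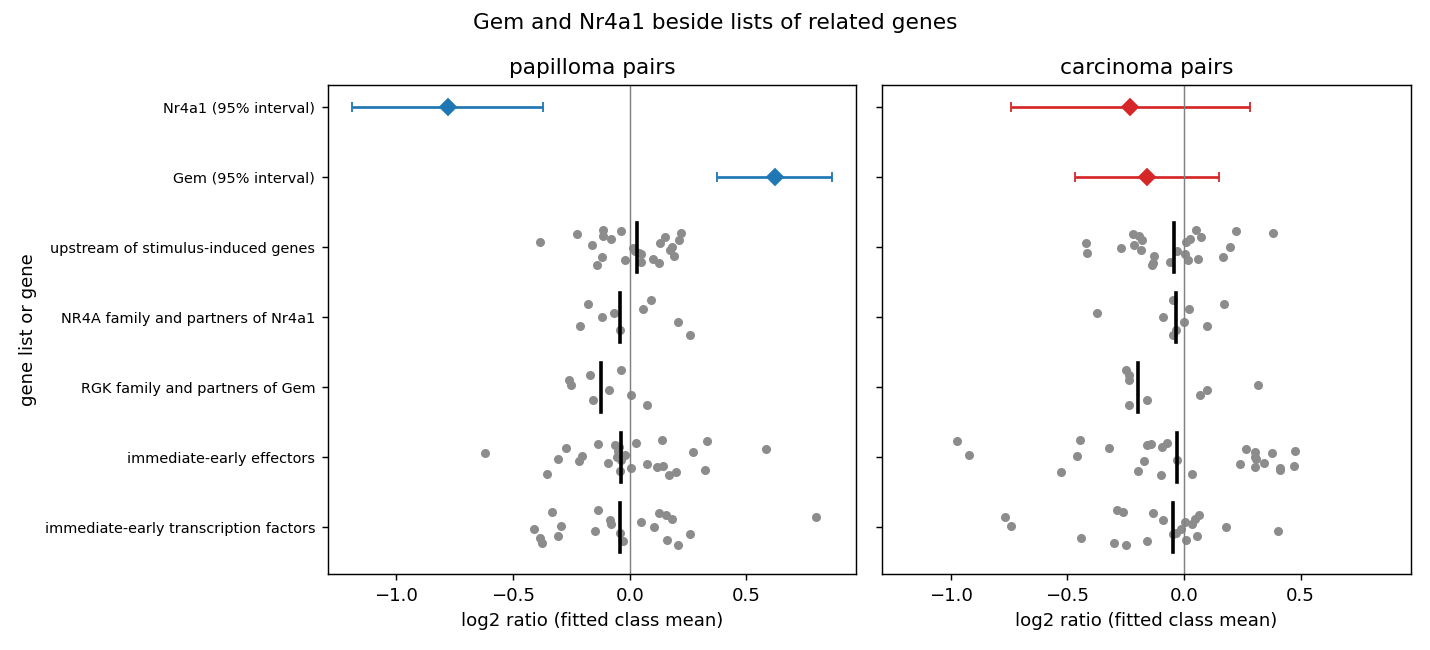
Fitted class mean log2 ratio (horizontal axis) of Gem and Nr4a1 (diamonds with 95% intervals) above the tested genes of 5 lists (grey points, vertical bars at list medians) in papilloma pairs on the left and carcinoma pairs on the right. In papillomas Gem sits at 0.62 and Nr4a1 at -0.78, and these values chose the genes, so their intervals there are no test. In carcinomas both intervals include 0.

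The genes whose values ran most like those of Gem over the 18 pairs, among 5929 genes measured in at least 16, were Ifi203 with a Pearson's r of 0.84, Cblb with 0.81, Smc5 with 0.79, Ankrd11 with 0.78 and Nat8l with 0.76 over 17 pairs. Ifi203 is an interferon-inducible gene and Cblb encodes a ubiquitin ligase. They stood at 0.52 ± 0.13 and 0.43 ± 0.12 in papillomas and at -0.35 ± 0.17 and -0.33 ± 0.15 (SE) in carcinomas. Most like Nr4a1 were Gabrr2 with 0.78, Orc2 with 0.72, Ift20 with 0.71, Lmo2 with 0.71 and Uap1 with 0.70. Between Gem and Nr4a1 themselves r was -0.42, which placed Nr4a1 at rank 5556 of 5929 by likeness to Gem. The pairs share tumours, and r over both classes takes in the difference between them.

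Markers of other cell types also moved between pairs, and their part in the values of Gem and Nr4a1 was not tested. In carcinomas 4 of 4 tested macrophage markers were positive, with a median of 0.71 and list means per pair from -0.049 to 2.28. Endothelial markers were positive in 3 of 3 and fibroblast markers in 4 of 4, at medians of 0.25 and 0.28, and neutrophil markers in 1 of 3 at -0.80. In the pair of bigenic 1687 against 221, where Nr4a1 was highest, the skeletal muscle list mean was 2.22 and the fibroblast list mean 1.13, the highest of any carcinoma pair for both lists. For 170 against 242 the muscle list mean was 1.96, with Nr4a1 at -0.33. In the papilloma pairs against 257B the muscle list mean was 0.70, 2.05 and 1.95, and against 257CE 0.13 and 0.0002. Against partners numbered 2000 it ran from -0.36 for 1995B to 0.98 for 1961B. The muscle list mean had the sign of Nr4a1 in 2 of 11 papilloma pairs and 6 of 7 carcinoma pairs. Keratinocyte markers were tested for 3 genes, all negative in papillomas at a median of -0.30. The list mean was lowest, at -1.38, in the pair of 1762D against 257B, where Gem was highest and the array had the widest spread. The next lowest list means were -1.12 for 1961B against 2000H, with Gem at 0.48, and -0.91 for 1762D against 2000D, with Gem at 0.19. Of lymphocyte markers 4 of 4 were positive in both classes, at medians of 0.16 and 0.19. Of pericyte and smooth muscle markers 4 of 5 were negative in papillomas and 4 of 5 positive in carcinomas. No marker passed in either class (limma, 6 and 9 of 32 at an unadjusted p under 0.05 in papillomas and carcinomas). Ratios give no level, so the presence of a cell type in a tumour piece could not be read from them.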

How the data were processed

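The authors deposited 1 log2 ratio per probe and array. The log base was taken from the values. Array processing and the numerator dye are not given in the sources. Probes were named through the platform annotation. Ratios were turned so that the bigenic tumour was on top as if Cy5 over Cy3, centred on each array's median, averaged over probes of a gene, and averaged over arrays of the same 2 extracts. Pairs, weighted by their arrays, were fitted with limma 3.58.1 (R 4.3.3) over both classes with a mean per class, for 6413 genes in at least 8 papilloma and 5 carcinoma pairs, with Benjamini-Hochberg adjustment at 0.05. Errors limit the precision through the number of pairs, some of which share a tumour. Exact tests went through every combination of signs in Python 3.11.15. On simulated data 78% of carcinoma changes of 1 on the log2 scale were recovered, and 14 of 163 calls were false. The simulated pairs were independent, so these rates do not cover pairs that share a tumour. Members and lists were chosen with earlier results of these data known. Named genes were the 4 tested list genes of smallest carcinoma p in each list and the 5 genes most like each member. Nr4a2, Nr4a3, Srf and the genes singled out beside the factor mean fall outside this rule and were chosen after their values were seen. Some genes named by the rule are not reported here. Alternatives changed the scaling, weights, dye orientation, replicate unit and pairs used.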

Additional observations from a re-analysis of the deposited data

Results flagged for a closer look

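Ifi203, the gene most like Gem, stood at 0.67 in the carcinoma pair of bigenic 1687 against 221 and between -0.86 and -0.23 in the other 6, a gap that set that pair apart. This was 1 of 36 groups of pairs examined, and chance sets apart about 1 group in 20.

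Bhlhe40 differed between the classes, at 0.80 ± 0.20 in papillomas and -0.77 ± 0.25 in carcinomas (difference -1.57 ± 0.32 SE, adjusted p = 0.0322, limma). It was positive in 9 of 11 papilloma pairs and negative in 7 of 7 carcinoma pairs. Nat8l also differed, at 0.60 ± 0.16 and -1.45 ± 0.21 (difference -2.04 ± 0.27 SE, adjusted p = 0.00114, limma), and was negative in 6 of 6 carcinoma pairs that measured it. Both tests took pairs as separate replicates, although shared tumours link them into 4 papilloma and 3 carcinoma groups. The first range of experiment numbers held papillomas alone. Neither difference was refitted under another replicate unit or range.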

How the results depend on the processing

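In carcinomas Gem stayed negative and short of the threshold under every alternative run, from -0.23 to -0.030, and from -0.26 to -0.052 without 1 tumour. Nr4a1 ran from -0.42 to 0.20, and from -0.42 to -0.020 without 1 tumour. It was on the positive side, at 0.20, with linked groups as replicates, in limma and in the exact test (p = 1, n = 3, smallest possible 0.25). There the 3 group means counted equally, at 1.26 for the 1 array of 1687 against 221, -0.039 and -0.62. Why 1687 against 221 stood apart was not tested. Papilloma values kept their side, Gem from 0.28 to 0.84 and Nr4a1 from -1.51 to -0.082, and without 1 tumour Gem from 0.47 to 0.70 and Nr4a1 from -0.998 to -0.59.

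The count of genes past the threshold in carcinomas was 5, and depended on the setting. It was 44 with equally weighted pairs, 3 with a tumour share of 0.2, 219 with the bigenic tumour in Cy3 only, 113 with the bigenic tumour as replicate and 51 with the monogenic tumour as block. It was 0 in limma with linked groups as replicates (972 at an unadjusted p under 0.05), each class alone (484) and the second range alone (504), and 2 to 75 without 1 tumour. With arrays scaled to equal spread 1 of 4 was positive, against 2 of 5. In papillomas the count was 4, with 2 positive, 41 with scaling (18 positive), 47 with quantile normalization (32 positive), 26 in Cy3 only, and 0 in limma with bigenic tumours (623 unadjusted) or linked groups (583) as replicates. Other normalization, dye and weighting settings gave 1 to 6. It was 23 within range 1 of experiment numbers, 2 within range 2 and 0 within range 3 (limma, 154 unadjusted). Weights by arrays that measured the gene were chosen after the data were seen. Testing each probe alone was not run, since each gene had 1.

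No paired analysis was possible because array numbers of papillomas and carcinomas mark no shared animal or batch and so give no block between the classes. This concerns array numbers alone. Some tumour numbers recurred across the classes, as in carcinoma 257A with papillomas 257B and 257CE, and carcinoma 1684A with papilloma 1684B. Whether these came from a shared animal is not stated. The second range of experiment numbers held 8 carcinoma and 4 papilloma arrays, and the third 1 and 5. Neither tumour number nor range was fitted as a block between the classes. The comparison of bigenic with monogenic tumours is itself paired within each array.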
